A study of Mus musculus with 6 samples.

Results

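Wild type mouse embryonic fibroblasts of the ICR strain were compared after transfection with a vector for H-Ras and SV40T or with a mock vector. The comparison rests on 2 of the series' 6 arrays, chosen by the sample titles, 1 mock and 1 transfected. It covers 15746 of the 16789 genes measured in the series. The cells were grown in Dulbecco's modified Eagle's medium with 10% foetal bovine serum, and the labels record no other treatment. The other 4 arrays hold the same mock and transfected comparison in Clk/Clk and Per2m/m fibroblasts, which carry mutations of the circadian clock genes Clock and Per2. Each group is 1 array, so no response below has a replicate check or a p-value, and how many cultures or embryos each RNA came from is not given in the labels. The time after transfection, and whether the cells were selected or are 1 clone, are also not given.

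H-Ras is a membrane-bound GTPase that relays growth factor signals to the MAP kinase cascade, and its oncogenic forms stay in the active state. The SV40 large T antigen binds the RB family, which releases E2F transcription factors that drive genes of DNA synthesis, and it binds p53, which blocks the activation of p53 target genes. Together they are a textbook route to the transformation of rodent fibroblasts. Fibroblasts themselves are known for collagens, proteoglycans and contractile actin fibres, and for positional HOX codes set in the embryo.

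A level is the log2 processed signal of a gene's probe minus the log2 of the 75th percentile of its array, and a response is the level on the transfected array minus that on the mock array. A level of 0 is thus the 75th percentile of the array's spots. A probe is well above background where the scanner software called it so. A response was computed only where the brighter array met that call, and where the dimmer array did not, the gene has a bound, written as at least N-fold. The bound sets the bright array against the higher of the dim probe's own signal and the lowest signal among well-above-background probes on the dim array. Where the dim probe's own signal is the higher, the bound equals the measured fold and is not a strict lower limit. An error after a response is the standard error that the scanner's own error model gives, which covers the reading of 1 array each and not repeat cultures. Its median over all responses was 0.20. Probes printed more than once spread with an SD of 0.06 on the mock and 0.05 on the transfected array (medians over probes). Of 59305 spots, 57.3% passed the background call in mock and 56.3% in transfected cells, 85 and 90 were left out as outliers and 0 were saturated. Levels are not compared between genes in the text, because probes differ in how they hybridise.

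Most genes had similar levels on both arrays, and the responses leaned to the lower side at the extremes. The levels correlated across genes with Pearson's r = 0.949 and Spearman's rho = 0.961, where genes are not independent replicates. The median response was 0.02, the 25th and 75th percentiles were −0.45 and 0.45, and 79.3% of genes lay within 2-fold. Of 15746 genes, 1264 (8.03%) were at least 2-fold higher after transfection and 1989 (12.6%) at least 2-fold lower. Lower genes outnumbered higher genes more at larger sizes, with 240 higher and 837 lower at 4-fold, 70 and 429 at 8-fold, and 30 and 191 at 16-fold. Scaling by array medians instead moved the whole distribution up, the median response became 0.34, and the split turned to 2434 higher and 1429 lower, so the balance of directions depends on the scaling. With normexp background correction the split was 862 higher and 994 lower. The excess of lower genes lay among dim genes. Of 4 equal groups by level, the dimmest had 378 genes at least 2-fold higher and 1102 lower, and the brightest had 264 higher and 141 lower. Of the genes with a response, 14407 passed the background call on both arrays, 844 on the mock array alone and 495 on the transfected array alone. Counts of genes past 2-fold, here and in the lists below, use the measured response, also for a gene dim on 1 array. Of 702 such genes counted as lower, 459 had a bound of at least 2-fold, and of 259 counted as higher, 168 did. The shares over all genes, 8.03% higher and 12.6% lower, are the measure for every list count below. Where a gene past 2-fold had several probes with a ratio, all probes had the same direction in 692 of 744 genes.

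**Figure D1:**
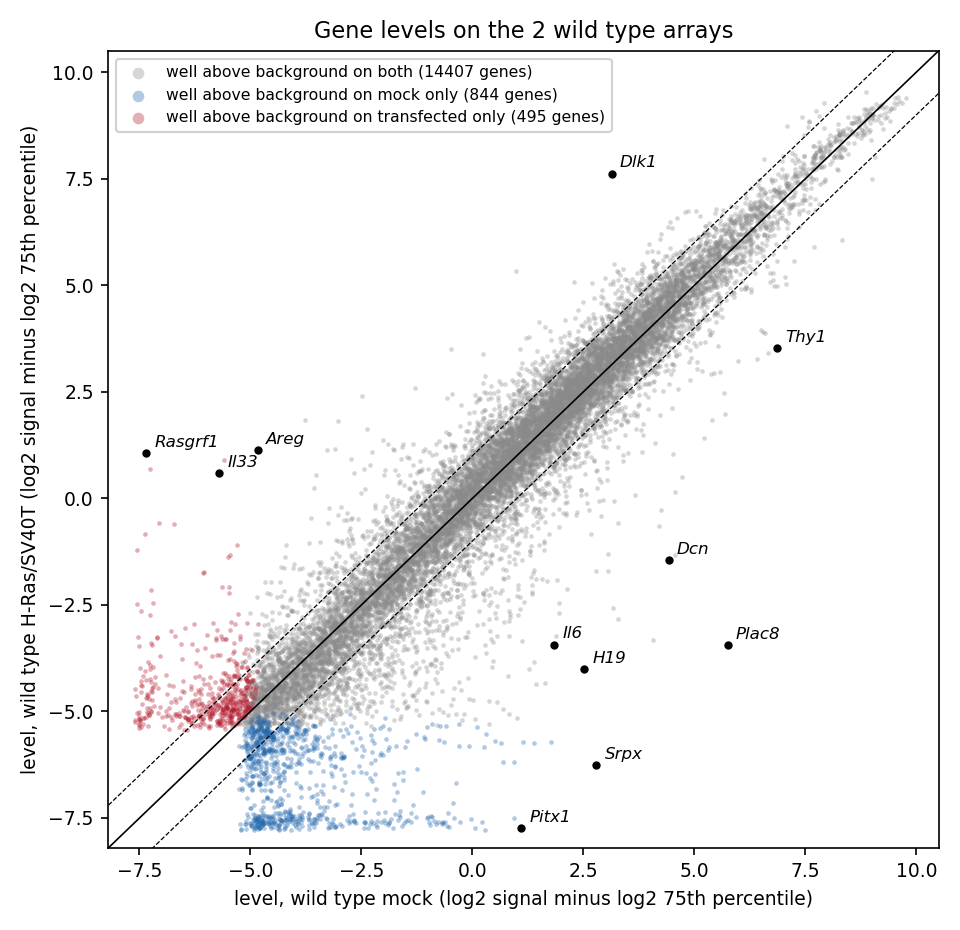
Level of each gene on the mock array (horizontal) and the transfected array (vertical) of wild type fibroblasts, in log2 signal relative to the array's 75th percentile, 1 array each; the solid line marks equal levels, the dashed lines 2-fold, and colours mark on which array the probe was well above background. Most of the 15746 points follow the line, and points far below it, such as Plac8, Dcn and Srpx, outnumber those far above it, such as Areg, Dlk1 and Rasgrf1.

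Among genes well above background on both arrays, the highest response was that of Areg, which encodes amphiregulin, a ligand of the EGF receptor. Its level was −4.84 on the mock array and 1.14 on the transfected array, a response of 5.97 ± 0.31 or 62.9-fold (probe at mm9 chr5:91570090-91570149). Dlk1, an imprinted transmembrane protein that restrains adipogenesis, had levels of 3.13 and 7.62, and its 2 probes had responses of 4.49 and 4.64. Areg was near the floor of the scale in mock cells, and both genes were above the 75th percentile after transfection. Eva1c followed Areg at 5.60, and Nefm, a neurofilament subunit, Apln, which encodes the peptide ligand apelin, Crybg1, Arhgap22 and Slc38a4, an imprinted amino acid transporter, lay between 4.24 and 3.89. Klra4, Klra15 and Klra16, receptors of the Ly49 family of natural killer cells, had responses of 4.89, 4.84 and 4.40. The Klra genes are near-identical copies, so their probes may read one another and the identity of the copy is uncertain.

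A further set was seen on the transfected array alone. Rasgrf1, an imprinted exchange factor that loads RAS with GTP, had a level of 1.05 on the transfected array and was at least 113-fold higher than in mock cells, where it was not well above background. Prkcb, a protein kinase C, was at least 90.7-fold higher and Nefl, the light neurofilament subunit, at least 88.0-fold. Il33, an alarmin cytokine stored in the nucleus, was at least 78.5-fold higher (mm9 chr19:30035101-30035160). Vit, Klra7, Stac and Omd, the last a small proteoglycan of bone, were higher by at least 36.2-fold, 36.0-fold, 30.4-fold and 18.3-fold. None of these 8 genes was well above background on the mock array, so their folds are bounds. For Prkcb, Il33 and Omd the bound equals the measured fold.

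The lowest response on both arrays was that of Plac8, a small cysteine-rich protein named for placenta, with a level of 5.75 in mock and −3.45 in transfected cells. Its 2 probes had responses of −9.20 and −7.17. Kif1a, a kinesin motor of axons, followed at −7.38 ± 0.22, with levels of 4.06 and −3.32. H19, the imprinted non-coding RNA of the Igf2 locus, had levels of 2.51 and −4.01, and all 6 of its probes had responses between −6.52 and −4.59. Dcn, which encodes the proteoglycan decorin, had levels of 4.42 and −1.45, a response of −5.86 ± 0.21 (mm9 chr10:96980233-96980292). All 4 genes were above the 75th percentile in mock cells and below it after transfection. Dpysl4, Gzme, a granzyme, Slc5a7, a choline transporter, Avpr1a, a vasopressin receptor, Sprr2k, a small proline-rich protein, Slc16a11, a monocarboxylate transporter, and AW549542 lay between −6.16 and −5.69. For Atp9a the brighter probe gave −5.90 and the other −0.25, the same direction at very different sizes.

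Srpx, a sushi repeat protein, had a level of 2.79 on the mock array and was at least 306-fold lower on the transfected array, where it was not well above background. Cxcl14, a chemokine, was at least 152-fold lower, Krt20, a keratin, at least 116-fold, and Rpl39l, a ribosomal protein paralogue, at least 115-fold. Vip, a neuropeptide, was lower by at least 96.8-fold, Pitx1, a homeobox factor of the hindlimb, by at least 94.8-fold, Ecrg4 by at least 84.5-fold and Lyz1, a lysozyme, by at least 84.2-fold. These were the 8 brightest genes that were well above background in mock cells and not in transfected cells.

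The genes of the RAS, p53 and RB proteins were read as a check of the labels. Hras had levels of 4.17 and 4.01, a response of −0.17, and its other probe gave 0.15, so its direction differed between probes. The labels do not say which form of H-Ras the vector carries, nor whether a mouse probe would read it, so the Hras value does not check the label, and no SV40T signal was analysed here. Nras had a response of 0.21. Trp53, which encodes p53, had levels of −0.47 and 0.65, a response of 1.11 ± 0.20. Rb1 had a response of −0.44, Cdkn2a, which encodes the INK4A and ARF tumour suppressors, of 0.73 at its brighter probe and 0.01 at the other, and Cdkn1a, the CDK inhibitor p21 and a p53 target, of −0.87. Mdm2, the ubiquitin ligase that p53 induces, had a response of −0.43. Mki67, the proliferation antigen Ki-67, was higher by 1.22, Pcna, the sliding clamp of DNA polymerases, by 1.14, and Ccnd1, the cyclin that RAS signalling induces, by 0.84. The clock genes that distinguish the series' other genotypes, Per2 and Clock, had responses of 0.99 and 0.21.

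All 41 measured genes of DNA replication had a response above 0, and 26 of them (63.4%, against 8.03% of all genes) were at least 2-fold higher and 0 lower. The median response of the list was 1.08, against 0.02 over all genes, and its members lay between 0.40 (Clspn) and 2.15 (Dscc1). Dscc1, which helps load the clamp for sister chromatid cohesion, had levels of −0.60 and 1.55. Prim1, the small primase subunit, had levels of 3.17 and 5.10, a response of 1.93 ± 0.20. Pole2, a subunit of DNA polymerase epsilon, was higher by 1.80, Pola1, the catalytic subunit of polymerase alpha, by 1.54, Rfc4, a clamp loader subunit, by 1.53, and Gins1 and Gins2, of the GINS part of the replicative helicase, by 1.52 and 1.36. The 6 MCM subunits of the helicase, Mcm2 to Mcm7, had responses of 1.35, 1.32, 1.15, 1.40, 1.03 and 1.34. The list thus moved together at a moderate size, with Pold1 at 1.01 just past 2-fold and Chaf1a at 0.99 just short of it.

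Promoter windows of these genes, 250 bases before to 50 after each start, were read from RefSeq on GRCm38.p6. The letters TTTCCCGC or TTTGGCGC, on either strand, are the strict form of the site that E2F factors bind. They stood in the windows of 11 of 31 matched replication genes (35.5%), 1 of 36 mitosis genes, 1 of 31 collagen genes and 2 of 25 contractile genes. Over all genes 486 of 27025 (1.80%) held them. Replication genes with these letters had a median response of 1.28 and those without of 1.02, so genes of both kinds were higher. To show where the letters lie, 3 replication genes that hold them in the bases before the start are printed. They had the highest responses among the genes taken in for printing. Not every replication gene was taken in, so others with the letters may have higher responses. The match is in capitals, and each sequence runs from 250 bases before the start to the base before it. The match begins 138 bases before the start in Pola1 (chrX:93632156-93632405, minus strand, response 1.54), 149 in Mcm5 (chr8:75109259-75109508, plus strand, 1.40) and 165 in Mcm7 (chr5:138171884-138172133, minus strand, 1.34). A match describes the letters and was not tested as a binding site.
Pola1: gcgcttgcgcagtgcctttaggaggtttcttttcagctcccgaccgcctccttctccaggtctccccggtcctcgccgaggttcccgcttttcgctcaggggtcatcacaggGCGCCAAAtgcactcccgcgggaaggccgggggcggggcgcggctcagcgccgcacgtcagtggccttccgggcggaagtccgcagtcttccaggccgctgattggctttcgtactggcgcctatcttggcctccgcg
Mcm5: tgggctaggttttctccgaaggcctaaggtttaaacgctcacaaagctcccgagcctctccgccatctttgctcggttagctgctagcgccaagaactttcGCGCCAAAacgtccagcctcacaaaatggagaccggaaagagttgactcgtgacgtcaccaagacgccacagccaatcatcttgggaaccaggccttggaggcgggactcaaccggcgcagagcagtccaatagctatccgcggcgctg
Mcm7: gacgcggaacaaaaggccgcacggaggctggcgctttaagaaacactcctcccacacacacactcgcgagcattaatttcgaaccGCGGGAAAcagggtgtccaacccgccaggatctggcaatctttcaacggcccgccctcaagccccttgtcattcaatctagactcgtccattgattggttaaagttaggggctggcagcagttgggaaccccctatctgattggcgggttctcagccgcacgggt

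Genes of mitosis had the highest median of the 52 lists examined, at 1.59, with all 42 above 0, where 51.6% of all genes were, 39 at least 2-fold higher and 0 lower. The other 3 were Incenp at 0.96, Tpx2 at 0.94 and Spc25 at 0.88. Cenpa, the histone variant that marks centromeres, had levels of 1.63 and 4.02, a response of 2.38 ± 0.20. Pttg1, the securin that holds separase inactive, had levels of 3.18 and 5.51, a response of 2.32. Cdca3, Kif20a and Kif23, mitotic kinesins in the case of the last pair, and Bub1b, a checkpoint kinase, lay between 2.16 and 2.18. Ccnb2, a B-type cyclin, was higher by 1.99, and Aurkb, the kinase of the chromosomal passenger complex, by at least 2.80-fold, since it was not well above background in mock cells. The median was larger than that of DNA replication, and the lowest mitosis member lay above the lowest replication members.

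The letters TTTGAA on either strand are those of the cell cycle homology region through which many mitotic genes are repressed outside the G2 and M phases. The word is short and common, and it was counted apart from the E2F words, which do not contain it. It stood in the windows of 26 of 36 matched mitosis genes (72.2%), 6 of 31 replication genes (19.4%), 7 of 31 collagen genes and 2 of 25 contractile genes, and in 5466 of 27025 genes in all (20.2%). Mitosis genes with the word had a median response of 1.60 and those without of 1.50. Ccnb2 (chr9:70421555-70421804, minus strand) and Espl1, which encodes separase (chr15:102296043-102296292, plus strand), are mitosis genes that hold the word before the start. Both had a response of 1.99 and are printed to show where the word lies. The choice of genes to print did not take in every mitosis gene, so others with the word may have higher responses. The word begins 167 and 27 bases before the start.
Ccnb2: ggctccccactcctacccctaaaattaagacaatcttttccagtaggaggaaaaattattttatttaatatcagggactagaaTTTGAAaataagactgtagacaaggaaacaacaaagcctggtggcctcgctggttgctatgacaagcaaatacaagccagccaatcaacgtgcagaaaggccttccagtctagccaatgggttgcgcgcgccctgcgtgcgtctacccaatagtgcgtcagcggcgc
Espl1: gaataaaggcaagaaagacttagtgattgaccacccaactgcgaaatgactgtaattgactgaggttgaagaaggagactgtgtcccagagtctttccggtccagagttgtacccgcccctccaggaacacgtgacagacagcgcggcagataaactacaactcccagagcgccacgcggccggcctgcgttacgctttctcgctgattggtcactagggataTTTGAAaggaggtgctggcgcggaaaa

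**Figure D2:**
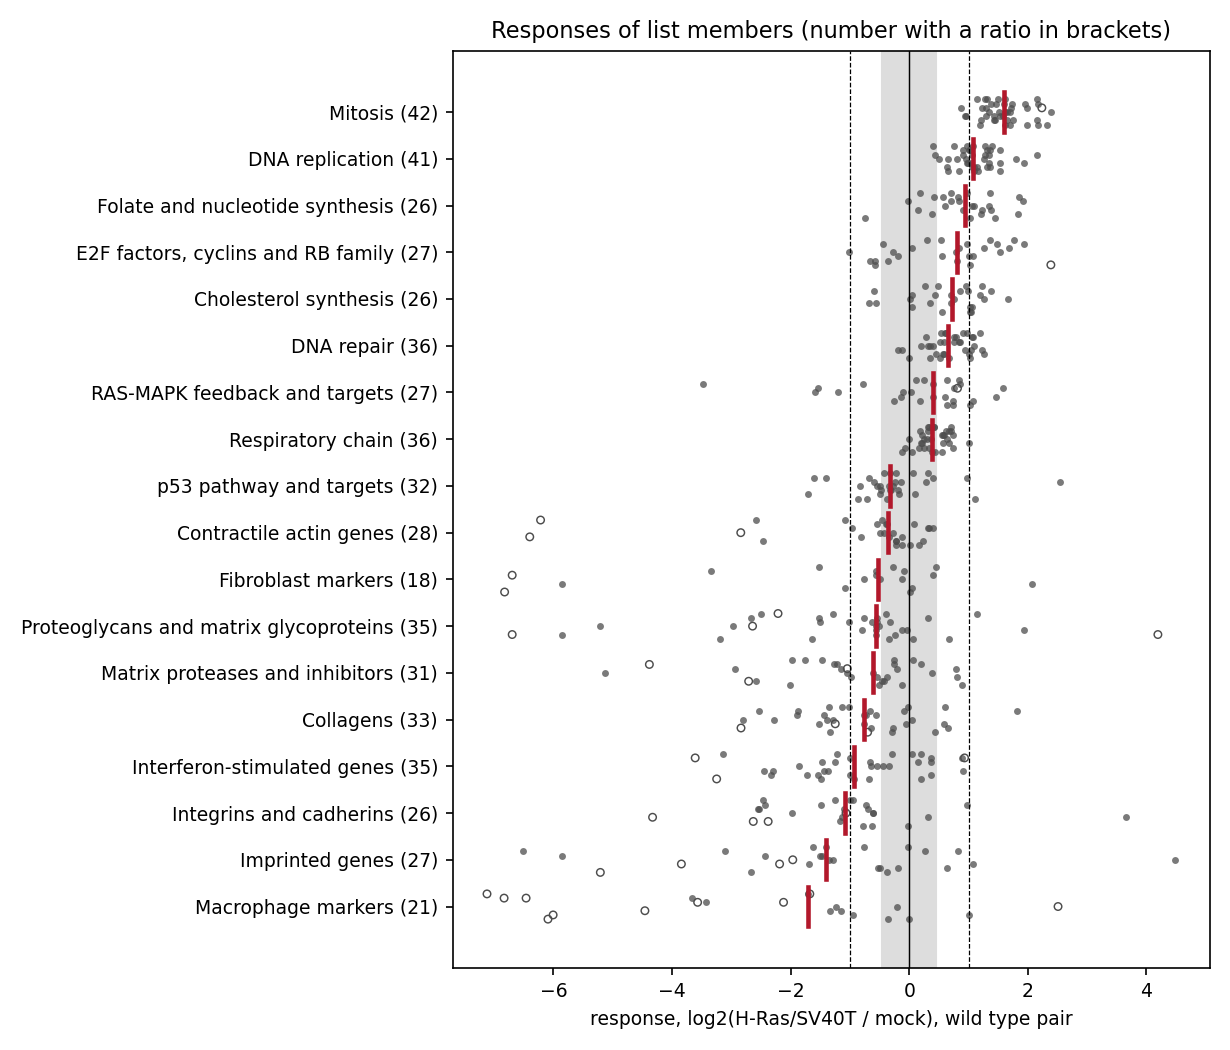
Responses (log2 of transfected over mock, wild type pair) of the members of 18 gene lists; points are genes, open points are genes well above background on 1 array only, red bars are list medians, the grey band spans the 25th to 75th percentile of all genes and dashed lines mark 2-fold. Mitosis and DNA replication members lie wholly above 0, while the macrophage, imprinted, integrin and matrix lists spread far below it.

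Other parts of the cell division programme were higher with more spread. Among E2F factors, cyclins and RB family genes 11 of 27 were at least 2-fold higher and 1 lower, with a median of 0.81. Cdc25b and Cdc25c, phosphatases that switch on cyclin-dependent kinases, had responses of 1.94 and 1.69, and Ccna2, cyclin A, of 1.77. The G1 cyclin Ccnd2 had a response of −1.01, E2f1 of 0.30, and Rbl1, the RB relative p107, of 1.27. Ccne2 was listed at a response of 2.39 with a bound of only 1.47-fold. The CDK inhibitors did not share a direction. Cdkn1c, the imprinted inhibitor p57, had levels of 1.35 and −1.76, a response of −3.11 ± 0.21, while Cdkn2c, p18, was higher by 1.26 and Cdkn2d, p19, by 0.79. Folate and nucleotide synthesis had 12 of 26 genes at least 2-fold higher, 0 lower and a median of 0.94. Tk1, thymidine kinase, had levels of 3.09 and 5.02, Slc29a1, a nucleoside transporter, was higher by 1.86, Shmt1, which feeds one-carbon units to thymidylate, by 1.84, and Dut, which removes dUTP, by 1.45. Rrm2, the small subunit of ribonucleotide reductase and a classic S-phase gene, had a response of only 0.15. DNA repair genes had a median of 0.65, and 33 of 36 lay above 0. At least 2-fold, 9 were higher and 0 lower. Rad51b was higher by 1.26 and Fancb by 1.09, while the probes of Fanci gave 1.19 and −1.12. Among genes of DNA methylation and Polycomb, 5 of 32 were at least 2-fold higher and 0 lower, with Dnmt3b at 1.24, the maintenance methyltransferase Dnmt1 at 1.20, the chromatin remodeller Hells at 1.03 and Cbx6 at 1.03.

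Biosynthetic lists were higher at smaller sizes. Cholesterol synthesis had 9 of 26 genes at least 2-fold higher, 0 lower and a median of 0.73. Idi1, which makes the isoprene unit dimethylallyl diphosphate, had levels of 2.16 and 3.84. Cyp51, which demethylates lanosterol, was higher by 1.38, Stard4, a sterol carrier, by 1.27 and Sqle, squalene epoxidase, by 1.22. Fatty acid synthesis had 2 of 15 (13.3%) at least 2-fold higher and 1 (6.67%) lower, against 8.03% and 12.6% of all genes. Elovl6, an elongase, was at 1.79, Fads2, a desaturase, at 1.20 and Acacb, an acetyl-CoA carboxylase, at −1.21. Respiratory chain genes were above 0 in 33 of 36 cases with a median of 0.38, and Cyc1, cytochrome c1, at 1.02 was the only one past 2-fold. Glycolysis and pentose phosphate genes had a median of 0.04, which ran from −0.08 to 0.36 over the scalings and background corrections tried, so no direction is given. Gapdh, Slc2a1, the main glucose transporter, and Pgd had responses between 0.03 and 0.04, while Slc2a3, another glucose transporter, had a response of −1.61 and Pdk1, which restrains pyruvate oxidation, of 1.44.

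Few genes of the p53 pathway passed 2-fold. Of 32 genes, 3 (9.38%) were at least 2-fold lower and 2 (6.25%) higher, both below the shares over all genes. The median was −0.32, with 24 genes below 0 where 48.4% of all genes were. Under array-median scaling it was −0.0048, where the median over all genes was 0.34. Against 0 the list thus has no settled direction, and under that scaling it stood at −0.34 relative to the median over all genes. Pmaip1, the pro-apoptotic NOXA, had levels of 2.67 and 0.96, a response of −1.71 ± 0.20. Eda2r, a receptor of the TNF receptor family, had a response of −1.61, Trp53inp1 of −1.41, and the death receptor Fas of −0.83. Perp, a p53 target that also sits in desmosomes, went the other way, with levels of 1.21 and 3.76, a response of 2.55 ± 0.20. Sesn1, a stress sensor, had a response of 0.97, and Trp53 itself was the other gene past 2-fold on the higher side. Bax, Ccng1 and Phlda3, further p53 targets, lay between −0.60 and −0.49. The BCL2 family had a median of 0.04, with 15 of 16 genes within 2-fold. Mcl1, an anti-apoptotic member, had a response of 0.59, Bok of 0.50, Birc3 of −0.59, and Bcl2a1d, dim after transfection, was at least 3.71-fold lower.

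RAS-MAPK feedback and target genes did not move together. The median of 27 genes was 0.40, with 4 at least 2-fold higher and 4 lower (14.8% each, against 8.03% and 12.6% of all genes). Fosl1, an AP-1 subunit that ERK stabilises, was higher by 1.47 ± 0.20, at a level of 3.43 after transfection, and Dusp2 and Dusp7, phosphatases of MAP kinases, had responses of 1.59 and 1.02. Dusp4, another such phosphatase, had levels of 2.32 and 0.73, a response of −1.58, and the RAS pathway inhibitors Spred3 and Spry1 had responses of −1.54 and −1.21. The standard ERK output genes Dusp6, Etv4 and Etv5, which were chosen after their values were seen, had responses of 0.74, 0.76 and 0.03. Il11, a cytokine of the IL-6 family, had levels of 4.52 and 1.03, a response of −3.49 ± 0.20. Hmga1, a chromatin protein of growing cells, had probes at 1.29, 1.07 and 0.14. Among AP-1, EGR and MYC factors 6 of 23 were at least 2-fold higher and 4 lower. Atf3 was higher by 1.41, and Egr4 and Egr3, each dim on 1 array, were at least 2.96-fold lower and at least 1.65-fold higher.

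EGF ligands and receptors included Areg, which led the higher genes seen on both arrays. Btc, betacellulin, another ligand, was at least 2.85-fold higher, and Errfi1, a feedback inhibitor of the receptor, had levels of 3.86 and 5.43, a response of 1.56. Egfr, the receptor itself, had levels of 2.80 and 1.74, a response of −1.06 ± 0.20. The remaining ligands and receptors measured, among them Hbegf, Tgfa, Ereg, Nrg1 and Erbb2, lay between −0.16 and 0.57. The RAS gene family had 2 of 22 (9.09%) at least 2-fold higher and 1 (4.55%) lower, against 8.03% and 12.6% of all genes. Its median of 0.01 ran from −0.11 to 0.33 over the scalings and background corrections, so it has no direction. Gem and Rrad, small GTPases that curb calcium channels, had responses of 1.53 and 1.37, Rap1a of 0.82, and Rasl11b of −2.47.

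**Figure D3:**
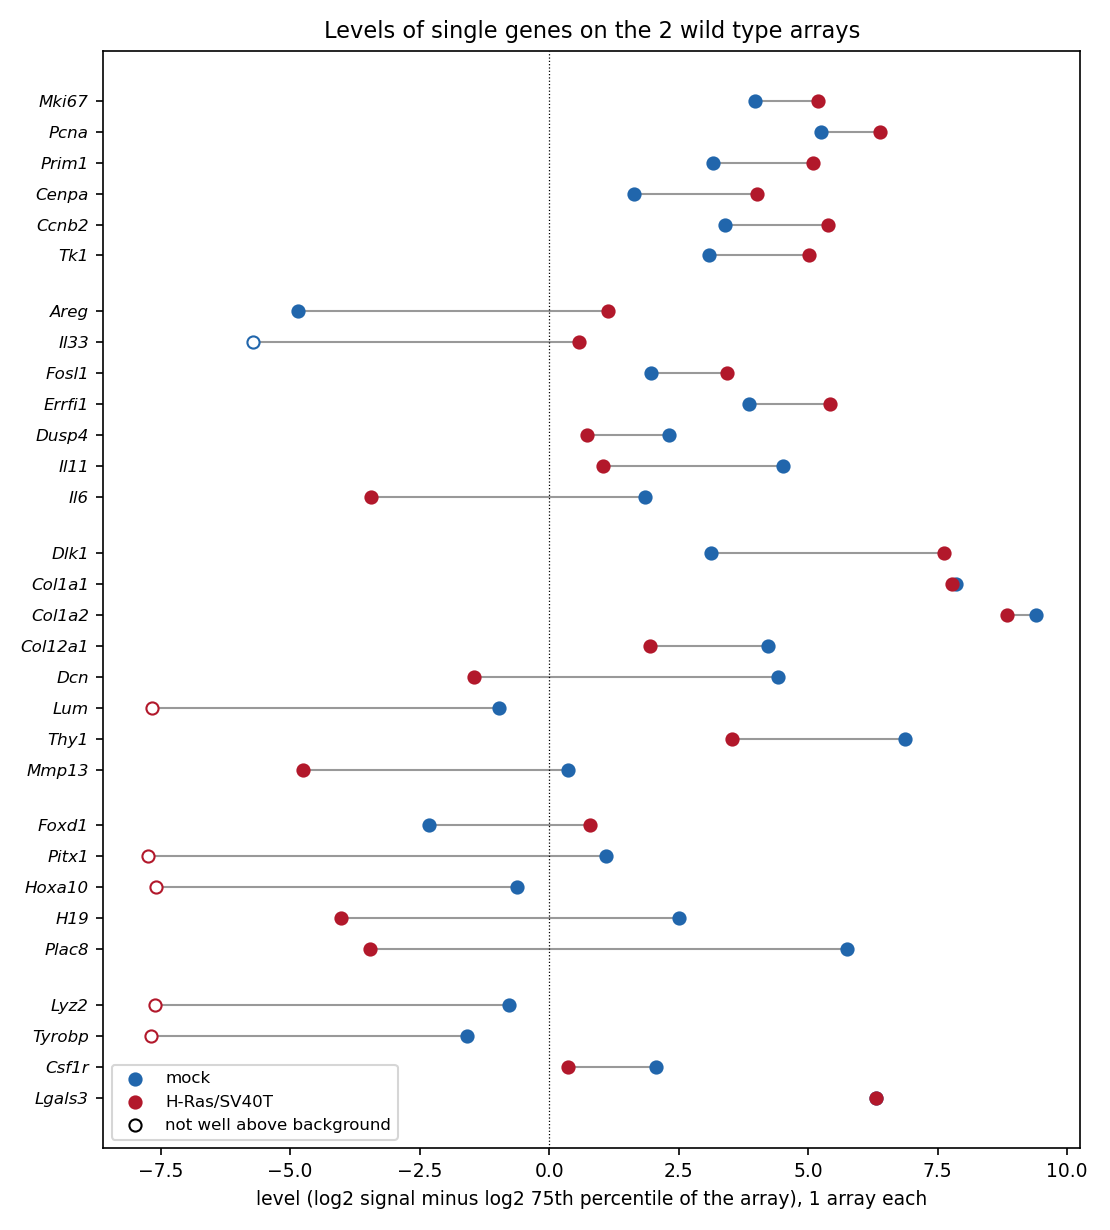
Levels of 30 genes on the mock (blue) and transfected (red) wild type arrays, in log2 signal relative to the array's 75th percentile, 1 array each, grouped as cell cycle, signalling, matrix and surface, identity and macrophage genes; open circles are not well above background. Cell cycle genes shift right by 1 to 2.4 units, Areg, Il33 and Dlk1 shift further right, and Dcn, Lum, H19, Plac8 and Pitx1 shift far left, while Col1a1 and Lgals3 hardly move.

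The fibroblast label was checked against its markers. All 18 fibroblast markers passed the background call in mock cells and 16 in transfected cells, without Fap and Lum. Col1a1 and Vim, vimentin, had responses of −0.08 and −0.12 and levels above 7 on both arrays, and Col1a2 and Fn1, fibronectin, had responses of −0.55 and −0.56. Twist1, Prrx1 and Ddr2 lay between 0.02 and 0.40. Against these, Thy1, a surface glycoprotein, had levels of 6.87 and 3.53, a response of −3.34 ± 0.20, Fap, a membrane protease, was at least 25-fold lower, Lum at least 22.7-fold lower and Dcn lower as given above. Pdgfra and Pdgfrb, the PDGF receptors, went apart, at 2.07 and −1.08. Of 18 markers, 1 was at least 2-fold higher and 6 lower, with a median of −0.52. By these markers the transfected cells kept the type I collagen and vimentin mRNAs of fibroblasts and those of the transcription factors Twist1 and Prrx1. They had less of several surface and matrix markers. Other mesenchymal transcription factors moved in both directions, as given below.

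Collagens were lower as a list, chiefly those outside types I and III. Of 33 genes, 15 (45.5%, against 12.6% of all genes) were at least 2-fold lower and 1 higher, and the median was −0.76. Col12a1, a fibril-associated collagen, had levels of 4.23 and 1.95, a response of −2.28 ± 0.20. The type V chains Col5a3 and Col5a1 had responses of −2.81 and −1.87, and Col5a2 of −1.44. Col8a1 had a response of −2.54, the basement membrane chains Col4a2 and Col4a1 of −1.52 and −1.38, and Col24a1 was at least 1.69-fold lower. Col8a2 had probes at −1.90 and 0.24. Col3a1 had a response of −0.76, and the type VI chains Col6a1 and Col6a2 of 0.59 and 0.65. Col2a1, the cartilage collagen, was the exception past 2-fold, with levels of 1.08 and 2.89, a response of 1.81. Among proteoglycans and matrix glycoproteins 14 of 35 were at least 2-fold lower and 3 higher. The small leucine-rich proteoglycans, which bind collagen fibrils, took both ends of the list. Fmod, fibromodulin, had levels of 1.39 and −3.83, a response of −5.22, beside Lum and Dcn, while Omd was at least 18.3-fold higher and Ogn, osteoglycin, higher by 1.93. Tnc, tenascin C, had a response of −2.96 and Postn, periostin, of −1.64.

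Elastic fibre and lysyl oxidase genes had 6 of 20 at least 2-fold lower and 2 higher. The microfibril proteins Mfap2, Mfap4 and Mfap5 had responses of −5.62, −4.06 and −3.14, the other Mfap2 probe giving −2.45. Loxl2, a collagen-crosslinking oxidase, had levels of 6.65 and 3.41, a response of −3.24, while Loxl1 was at 0.12 and Emilin2 at 1.52. Matrix proteases and their inhibitors had 14 of 31 at least 2-fold lower and 0 higher. Mmp13, a collagenase, had levels of 0.37 and −4.76, a response of −5.13 ± 0.28, Adamts12 had a response of −2.94, and Mmp10 and Mmp9 were at least 20.9-fold and 2.09-fold lower. Mmp3, stromelysin, and the inhibitors Timp1, Timp2 and Timp3 stayed within 2-fold, at 0.80, −0.51, −0.26 and 0.20.

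TGF-beta and matricellular genes had 12 of 36 at least 2-fold lower and 4 higher. Thbs4, a thrombospondin, was at least 27.5-fold lower, Tgfb3, a TGF-beta ligand, had a response of −2.73 ± 0.20, and Gdf6 was at least 2.81-fold lower. Bmp2, a bone morphogenetic protein, went up the scale from −4.03 to −1.53, a response of 2.49 ± 0.25. Ccn1 and Ccn2, standard targets of YAP signalling, were near equal at −0.20 and −0.33. Contractile actin genes ranged widely. Acta2, smooth muscle actin, Tagln, Cnn1, calponin, and Myl9 lay between −0.40 and −0.22, and Actg2 and Acta1 had responses of −0.97 and −1.08. Of 28 genes, 6 were at least 2-fold lower and 0 higher, with a median of −0.36 that shrank to −0.05 under array-median scaling. Myh11, the smooth muscle myosin heavy chain, was at least 63.3-fold lower, Des, desmin, at least 4.76-fold, and Synpo2 and Lmod1 had responses of −2.58 and −2.47. Mylk, the myosin light chain kinase, had 1 probe at least 69.4-fold lower and another at −0.26, so its probes differed.

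Integrins and cadherins had a median of −1.08 (−0.98 with dim members at their bound), with 15 of 26 at least 2-fold lower and 1 higher. Itga11, a collagen receptor of fibroblasts, had levels of 6.50 and 3.95, a response of −2.55, and Itga8, Itga7 and Itga9 had responses of −2.54, −2.43 and −1.98. Itgb1, the shared beta 1 subunit, had a response of −1.17 and Itgav of −1.14. Cdh3, P-cadherin, was at least 20.1-fold lower, Cdh4 at least 1.58-fold lower, and Cdh11, the cadherin of fibroblasts, had a response of −2.46. Itgb7, an integrin subunit known from lymphocytes, went from −2.73 to 0.93, a response of 3.65 ± 0.21. Regulators of the epithelial to mesenchymal transition changed little. Snai1, Snai2, Zeb1, Zeb2 and Twist1 lay between −0.48 and 0.40, Tcf3, E2A, was at 1.22, and Esrp2, an epithelial splicing factor, at −3.31.

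Genes of secreted signals moved in both directions. Il6 had levels of 1.84 and −3.43, a response of −5.28 ± 0.22, and Tnfsf11, RANK ligand, of −3.40, while Il33 was far higher as given above. The cytokine and growth factor list had 8 of 36 at least 2-fold higher and 11 lower, and its median of −0.21 turned to 0.10 under array-median scaling. Of 21 chemokines, 8 were at least 2-fold lower and 3 higher. Cxcl14 was the lowest, Ppbp had levels of 3.04 and −1.71, and Pf4 and Ccl8 were at least 5.76-fold and 20.8-fold lower. Ccl2 and Ccl7, monocyte attractants, had responses of −0.59 and −0.70, and Cxcl12, which guides stem and immune cells, had levels of 4.61 and 5.71. Complement and acute phase genes had 11 of 25 at least 2-fold lower and 1 higher. C2, a component of the classical pathway, had levels of 0.46 and −3.82, Slpi, a protease inhibitor, of −0.71 and −3.99, and C1qa and C1qc were at least 4.31-fold and 4.96-fold lower.

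Interferon-stimulated genes had a median of −0.94, with 17 of 35 at least 2-fold lower and 0 higher. Oas1a, a sensor of double-stranded RNA, had levels of −0.71 and −3.86, a response of −3.15 ± 0.24. Psmb8, an immunoproteasome subunit, had a response of −2.46, Isg15, a ubiquitin-like protein, of −1.72, and Usp18, which removes it, of −2.30. Ifi44 and Rsad2 were at least 6.00-fold and 2.23-fold lower. The transcription factors that carry the interferon signal did not share one direction: Stat2 and Irf9 had responses of −0.66 and −0.55, Irf1 of 0.89, and Irf7 of −1.25. MHC class I and immunoproteasome genes had 2 of 20 (10.0%, against 12.6% of all genes) at least 2-fold lower, Psmb8 and Tap2 (−1.26). H2-D1 and H2-T23 were at −0.82 and −0.80 and B2m at −0.39.

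Markers of other cell types were measured beside these lists. Macrophage markers had the lowest median of the 52 lists, −1.70 (−1.64 with dim members at their bound), with 15 of 21 at least 2-fold lower and 2 higher. Of 27 markers listed, 20 passed the background call in mock cells and 12 in transfected cells. Lyz2, macrophage lysozyme, was at least 26.0-fold lower, Ctss, cathepsin S, at least 21.6-fold, and Tyrobp, a myeloid adaptor, at least 14.7-fold. Csf1r, the receptor of the macrophage growth factor, had levels of 2.06 and 0.36, and Adgre1, the F4/80 antigen, was at least 3.12-fold lower. Spi1, the myeloid factor PU.1, was not well above background on any of the 6 arrays. Cd68, Lgals3 and Itgam had responses of −0.36, −0.00 and −0.94, and Cd14 and Mrc1, the mannose receptor, were higher by 1.01 and 2.51. The summed signal of the list, in units of the array's 75th percentile, was 131 in mock and 105 in transfected cells and came mainly from Lgals3 and Itgam. Fewer cells of a type and less RNA per cell cannot be told apart in bulk RNA. In this pair the chemokine, complement, interferon and matrix lists also had medians below 0. The part of the macrophage markers in those responses was not tested. In the Per2m/m pair the macrophage median was −2.27, beside −0.16 for chemokines, −0.65 for complement, −1.95 for collagens and 0.82 for interferon-stimulated genes.

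Endothelial markers had 4 of 10 at least 2-fold lower and 0 higher, with Eng, endoglin, at −3.32, Flt1, a VEGF receptor, at −2.18, Emcn and Vwf at least 3.82-fold and 3.05-fold lower, and Pecam1 and Kdr at −0.38 and −0.17. Mesothelial markers went apart, so that their median of −0.11 turned to 0.21 under array-median scaling. Wt1 was at least 15.2-fold lower and Krt19 had a response of −2.36, while Msln, mesothelin, and Bnc1, basonuclin, were higher by 3.39 and 3.11. Epithelial markers had 3 of 15 at least 2-fold higher and 4 lower and a median of −0.02 that ran from −0.17 to 0.29. Dsp, desmoplakin, was higher by 1.72, while Cdh1 and Epcam, the defining markers, were below the background call in both wild type samples. Neural and glial markers had 2 of 19 at least 2-fold higher and 6 lower. Stmn2, a neuronal tubulin regulator, was at least 54.9-fold lower, S100b, a glial protein, had a response of −4.87 and Tubb3, neuronal tubulin, of −2.45, while Sox2, a progenitor factor, was at least 3.43-fold higher.

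Adipogenic genes had a median of −0.19 that ran to 0.12, and Dlk1 stood apart from the rest, with Fabp4, the adipocyte fatty acid binding protein, at −1.74 and Pparg at 0.68. Klf15 and Cd36 were at least 1.68-fold and 1.39-fold lower. Cartilage, bone and tendon genes had 4 of 16 at least 2-fold higher and 2 lower. Sox9, the master factor of cartilage, went from −1.60 to 0.91, a response of 2.51, beside Col2a1, and Mkx, a tendon factor, was higher by 1.97, while the matrix products Tnmd and Comp were lower by 2.62 each. Skeletal muscle genes had 5 of 13 at least 2-fold lower and 2 higher as measured. Myod1, Myf5 and Myog, the defining factors, were not well above background on any of the 6 arrays. Tnnt1, a slow troponin, had a response of −2.04, and Myh8 and Ttn were at least 3.05-fold and 1.49-fold higher from very low levels. The Y-linked genes Ddx3y and Eif2s3y had responses of −0.29 and 0.07, whose signs turn with the scaling, and Uty of −0.67. Xist, the X-inactivation RNA, had levels of −1.03 and −0.95 at its brighter probe. Its other probe had −1.34 and −2.46, a response of −1.12, so the Xist probes differed. Markers of both sexes were thus seen on both arrays.

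Positional transcription factors split sharply. Of 34 HOX genes, 12 were at least 2-fold lower and 1 higher, and the median of −0.06 turned to 0.25 under array-median scaling. All but Hoxb5 of the lower genes came from the posterior end of the clusters, paralogue groups 9 to 13. Hoxa10 and Hoxa11 were at least 28.6-fold and 13.8-fold lower, Hoxc11 and Hoxb13 at least 17.5-fold and 13.7-fold, and Hoxc10 and Hoxc13, chosen after their values were seen, had responses of −4.23 and −4.95. Not all of those groups were lower, since Hoxd9 and Hoxc9 had responses of −0.05 and −0.36. Of the anterior and middle genes, Hoxa3, Hoxb4, Hoxc6 and Hoxa7 had responses of 0.02, 0.11, 0.32 and 0.75, and Hoxb5 of −1.29. Among mesenchymal transcription factors 10 of 49 were at least 2-fold lower and 8 higher. Pitx1 and Tbx4, which specify the hindlimb, and Tbx5, which specifies the forelimb, were lower, Pitx1 by at least 94.8-fold and Tbx5 by at least 15.7-fold. Six2, a factor of kidney and craniofacial mesenchyme, was at least 51.4-fold lower at its brighter probe and Meox2, of the somites, at least 29.7-fold. On the other side, and chosen after their values were seen, Foxd1 had levels of −2.31 and 0.78, Lhx2 was higher by 2.62 and Pax3 by 1.97. Limb and posterior patterning genes of the mock cells thus included several below the background call after transfection.

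Imprinted genes, which are expressed from 1 parental allele, had a median of −1.40 (−1.34 with dim members at their bound), with 16 of 27 at least 2-fold lower and 2 higher. The median was −0.70 with normexp background and −1.09 under array-median scaling. Rasgrf1 and Slc38a4, imprinted genes that were far higher, are not in this list of 27. H19, Dcn and Cdkn1c have been given above, and Peg3, a zinc finger gene, was at least 8.30-fold lower and Meg3, the non-coding RNA next to Dlk1, had levels of 6.55 and 3.89, a response of −2.66. Dlk1 itself was 22.4-fold higher, so neighbours of that imprinted region went in opposite directions. Igf2r, an imprinted receptor that clears IGF2, had a response of −1.47, and Gnas of −0.18, with its 3 probes between −0.77 and 1.70. The IGF pathway had 6 of 17 at least 2-fold lower and 2 higher. Pappa2 and Pappa, proteases that free IGF from its binding proteins, were lower, the one by at least 43.4-fold and the other from a level of 4.25 to −0.27, while Igfbp6 was higher by 2.04. The WNT pathway had 10 of 35 at least 2-fold higher and 9 lower, so its median of −0.16 (−0.21 to 0.16 over the scalings) says little. Dkk3 had levels of 3.05 and −1.32 and the secreted antagonist Sfrp1 had a response of −3.55, while its relative Sfrp2 was higher by 2.83 and Wnt6 at least 6.61-fold higher.

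Enzymes that handle drugs and aldehydes were lower in part. Of 19 aldehyde dehydrogenases, 7 were at least 2-fold lower and 1 higher. The retinaldehyde-oxidising genes Aldh1a1 and Aldh1a3 were lower, by at least 9.14-fold and by 2.83 in log2. Aldh1a7 was at least 4.90-fold lower, and Aldh1l1, a folate enzyme, had a response of −2.54. Aldh3a1 had probes that disagreed, at −0.63 for the brighter and 4.29 for the other, which was well above background after transfection only, so no direction is given. Glutathione transferases and UGTs had 8 of 22 at least 2-fold lower and 1 higher. Gstk1 had levels of 1.03 and −2.14, Gsta2 had a response of −2.49, Gstt2 of −1.91, and Sult1a1 was at least 3.07-fold lower. NRF2 targets had a median of 0.14 that ran from −0.01 to 0.46, with Hmox1, haem oxygenase, at −1.50, Gsr, glutathione reductase, at 1.26, Gsta4 at −1.04 and Slc7a11 at 0.89. Among efflux transporters, whose median of −0.09 ran to 0.23, Abcb1b, a multidrug transporter, and Abcb4 were higher by 1.72 and 1.69, and Abca3 and Abca1 had responses of −1.68 and −1.14.

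The core clock list had 4 of 23 (17.4%, against 12.6% of all genes) at least 2-fold lower and 0 higher. Its median of 0.01 ran from −0.04 to 0.33 over the scalings. Rora, an activator of Bmal1, had a response of −1.81, Dbp, an output factor, of −1.42, Fbxl21 of −1.31 and Bhlhe41, a repressor, of −1.06. Arntl, which encodes BMAL1, was at −0.52, Per1 at −0.06 and Cry1 at 0.90. Each group is 1 array and the time of RNA collection is not given, so phase and level cannot be told apart. Heat shock and chaperone genes had 2 of 25 at least 2-fold higher and 5 lower and a median of 0.13 that ran from −0.03 to 0.44. Hspb7, a small heat shock protein of muscle, had a response of −3.36, Hspb2 of −1.34 and Hspa2 of −1.23, while Hspa4l was higher by 1.54 and the main cytosolic chaperones Hspa8 and Hsp90ab1 were at −0.02 and 0.25. Of 28 germline genes listed, 10 had a response, 3 at least 2-fold higher and 3 lower, and the median of −0.22 turned to 0.09 under array-median scaling. Zscan4f, a gene of the early embryo, and Xlr3a were at least 3.40-fold and 5.04-fold higher, Xlr had a response of −2.09 and Tex11 was at least 1.48-fold lower.

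The same lists were set beside the pairs of the other genotypes, which share no array with the wild type pair. Each pair is 1 array a side, so the differences between pairs were not tested. In wild type 20.7% of genes were past 2-fold. The Clk/Clk pair had 8.79% past it, 4.17% higher and 4.62% lower, and the Per2m/m pair 42.8%, 20.3% higher and 22.4% lower. Medians below are given in the order wild type, Clk/Clk, Per2m/m. Those of mitosis genes were 1.59, 0.44 and 0.56, with 39, 0 and 7 genes at least 2-fold higher. DNA replication genes were closer, at 1.08, 0.75 and 1.03, with 26, 7 and 23. Collagens had medians of −0.76, −0.10 and −1.95, contractile genes of −0.36, 0.10 and −2.71, and imprinted genes of −1.40, −0.15 and −2.17. For the interferon-stimulated genes the medians were −0.94, 0.14 and 0.82, below 0 for wild type alone, a difference that was not tested. Macrophage markers had medians of −1.70, −0.14 and −2.27. Of the 1439 genes at least 2-fold lower in wild type with a ratio in all pairs, 953 were also at least 2-fold lower in the Per2m/m pair and 139 in the Clk/Clk pair, while 160 and 193 were at least 2-fold higher there. Of the 996 at least 2-fold higher, 469 were so in the Per2m/m pair and 49 in the Clk/Clk pair, while 131 and 77 were at least 2-fold lower. Areg, with a wild type response of 5.97, had responses of −0.83 for Clk/Clk and −3.26 for Per2m/m, the last dim after transfection. Dlk1 was already at a level of 7.42 in mock Clk/Clk cells, with responses of 0.31 there and 3.39 for Per2m/m. Plac8 had responses of −0.39 and −8.81 in that order.

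**Figure D4:**
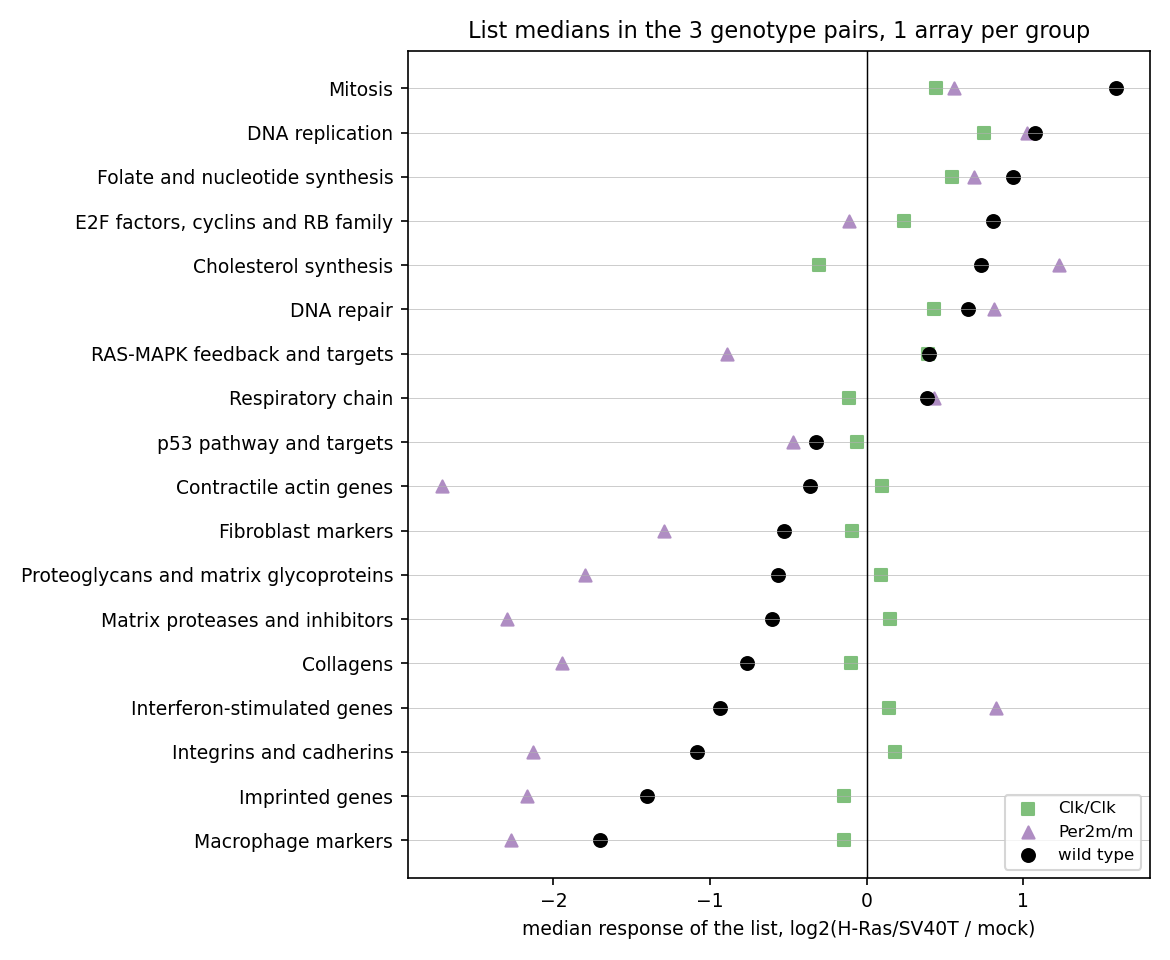
Median response (log2 of transfected over mock) of 18 gene lists in the wild type (black circles), Clk/Clk (green squares) and Per2m/m (purple triangles) pairs, 1 array per group. The mitosis median is highest in wild type at 1.59, the matrix and contractile medians are lowest in Per2m/m, and the interferon-stimulated median is below 0 in wild type and above 0 in the other 2 pairs.

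The responses were also set by chromosome, a split chosen after the data were seen and given as a description. It uses 14326 genes well above background on both wild type arrays and placed on mm9. On most chromosomes the median response lay between 0.01 and 0.08. Chromosome 15 had a median of 0.42 over 598 genes, with 430 (71.9%) above 0 and 112 (18.7%) at least 2-fold higher, against 52.2% and 6.47% on all other chromosomes together. Of the 11 windows of 50 neighbouring genes along chromosome 15, 10 were among the 25 highest of 275 windows in the genome. Higher genes there included Slc38a4 at 3.89, Itgb7 at 3.65, Dscc1 at 2.15, Igfbp6 at 2.04, Espl1 at 1.99 and Col2a1 at 1.81. Myc, the growth-promoting transcription factor, at 1.30 and Sqle at 1.22 also lie on it, so members of several lists above do. Sqle lies in the lowest of the 11 windows, with a median of −0.0006. At least 2-fold lower were 36 genes (6.02%, against 9.08% on all other chromosomes together), among them Adamts12 at −2.94. Hoxc11, given above as lower and dim after transfection, lies there too. Chromosome 10 had a median of 0.25 and chromosome 13 of 0.14. Relative to the other chromosomes, chromosome 10 stood 0.21 higher on the transfected than on the mock wild type array. Against the Clk/Clk mock and transfected arrays it stood at −0.17 and −0.32, and against the Per2m/m arrays at 0.16 and 0.23. The sign for chromosome 10 thus depends on the array compared. Chromosome 7 had a median of −0.21 over 1152 genes, with 35.4% above 0 and 22 of its 23 windows below 0, but 0.11 under array-median scaling, where the median over all these genes was 0.36. The same scaling gave 0.74 for chromosome 15. Relative to the other chromosomes, chromosome 15 stood 0.41 higher on the transfected than on the mock wild type array, and 0.39, 0.34 and 0.38 higher than on the Clk/Clk mock, Clk/Clk transfected and Per2m/m mock arrays, but −0.09 against the transfected Per2m/m array. The DNA replication and mitosis lists each had 1 member on chromosome 15, so their medians do not rest on it. On chromosome 7 these lists had 2 and 3 members, and the imprinted list had 12 of its 27. The imprinted median was −1.40 and that of chromosome 7 was −0.21. Whether the chromosome 7 members bear on the imprinted median was not tested. DNA was not measured on these arrays.

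**Figure D5:**
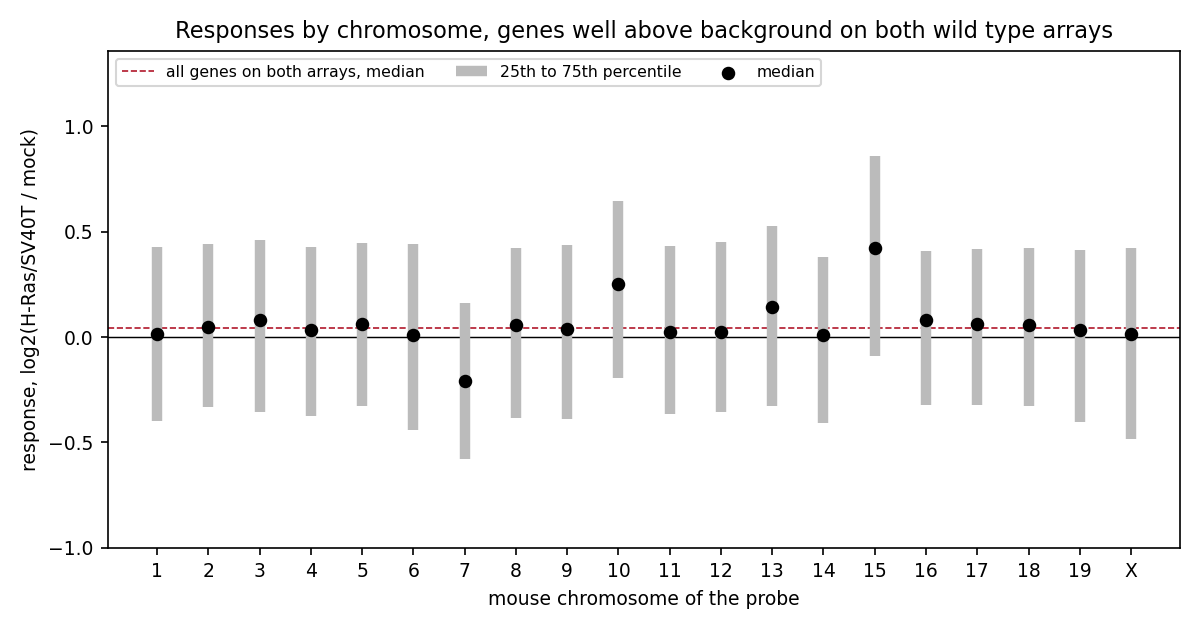
Median (points) and 25th to 75th percentile (bars) of the response (log2 of transfected over mock) by chromosome, over genes well above background on both wild type arrays; the dashed line is the median over all these genes. Chromosome 15 stands highest at 0.42, chromosome 10 next at 0.25, and chromosome 7 lowest at −0.21.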

How the data were processed

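RNA of each sample was measured on a 1-colour Agilent mouse array, 1 array a sample, all 6 on 1 slide and in 1 scan. The deposited intensity of each spot is the scanner's processed signal, background-subtracted and detrended by Feature Extraction 10.7.1.1 per the file headers, while the submitters' processing notes name version 9.5.1.1. The deposited series table is quantile-normalized by its values (its columns hold identical sorted values), with software not given in the sources used here. Outlier spots were left out, spots of a probe were averaged, and the log2 intensity was taken relative to each array's 75th percentile, from the deposited scanner signals. Of 55681 probes, 27325 were named by accession, 3523 by symbol, 551 by synonym through RefSeq and 166 by the file's own name, and 24116 stayed unnamed. Probes that passed the background call on 1 or more of the 6 arrays were kept, and the brightest stands for its gene. Normexp used limma 3.58.1 in R 4.3.3 with an offset of 50. The call of genes past 2-fold was tried on simulated data, with planted steps well past 2-fold in bright genes. That trial did not cover the rule for dim arrays, the bounds, the choice of probe or the scaling.

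The genes named are the 12 highest and 12 lowest responses on both arrays, the 8 brightest seen on 1 array alone, the members of each list with the largest responses (up to 4, or up to 8 in 6 of the lists), defining markers and genes of the vector's known partners. Other list members named were chosen after their values were seen. The members and lists were chosen with earlier results of these data known. No test was made, because each group is 1 array, and the labels do not say whether samples came from separate cultures. The number of arrays limits the precision. Some genes that this rule names are not reported here.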

Additional observations from a re-analysis of the deposited data

Results flagged for a closer look

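Some wild type responses were opposed by ratios of the other sign, 2-fold or more as measured, in both the Clk/Clk and the Per2m/m pair. Among genes with a ratio in all pairs, this held for 30 of the 996 at least 2-fold higher in wild type. It held for 19 of the 1439 at least 2-fold lower. The genes below were found among those picked by the naming rule, not among all genes. The difference was not tested for any of them, since each pair is 1 array a side. Among Ly49 receptor genes, which are near-identical copies, Klra4 had a wild type response of 4.89 against −3.57 and −2.99, and Klra16 of 4.40 against −3.06 and −1.83. The neurofilament gene Nefm had 4.24 against −1.29 and −2.63, the calcium channel regulator Rrad 1.37 against −1.03 and −2.10, and the WNT antagonist Sfrp2 2.83 against −1.63 and −2.56. In these 5 genes the transfected Per2m/m array was not well above background, so the Per2m/m fold is a bound. It was at least 1.94-fold lower for Klra4, 2.48-fold for Klra16, 1.70-fold for Nefm, 2.88-fold for Rrad and 1.52-fold for Sfrp2, so for 3 of them a 2-fold difference is not shown. The phosphatase gene Dusp4 had −1.58 against 1.34 and 1.59, and the chemokine Ccl8 −4.51 against 1.48 and 4.03. The protease inhibitor Slpi had −3.28 against 3.67 and 11.14, and the folate enzyme Aldh1l1 −2.54 against 1.40 and 1.17. No bound is given for these higher ratios or for the Clk/Clk pair, so a dim array there is not marked.

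Probes that carry no gene name were past 2-fold at shares close to those of named genes, of which 8.03% were higher and 12.6% lower. Of 24116 such probes, 11277 had a wild type ratio, and 814 (7.22%) were at least 2-fold higher and 1338 (11.9%) lower, with a median of −0.07. They include 16194 probes for long intergenic non-coding RNAs, of which 7308 had a ratio, 475 (6.50%) were at least 2-fold higher and 968 (13.2%) lower, with a median of −0.13.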

How the results depend on the processing

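Array-median scaling took the median over all genes from 0.02 to 0.34, gave 2434 higher and 1429 lower genes, and gave medians of 1.39 for DNA replication, 1.91 for mitosis, 1.25 for folate and nucleotide synthesis, −0.45 for collagens, −0.62 for interferon-stimulated genes and −1.39 for macrophage markers. It turned the sign of the cytokines (0.10), the germline genes (0.091) and chromosome 7 (0.11), and of list medians nearer 0, namely HOX (0.25), mesothelial (0.21), epithelial (0.29), adipogenic (0.12), efflux (0.23), WNT (0.16) and sex-linked genes (0.20). Normexp background gave 994 lower genes and medians of −0.55 for collagens, −0.60 for interferon-stimulated genes and −1.03 for macrophage markers. Requiring both arrays above background gave 1287 lower genes and a macrophage median of −1.15, and choosing probes on the wild type arrays alone gave −1.91. With no filter there were 2992 lower genes, the interferon-stimulated median was −0.72, and the cartilage, bone and tendon median (−0.015) and Ttn (−0.25) changed sign. The median over all kept probes gave −0.68 for interferon-stimulated genes, −2.41 for macrophage markers and 0.0082 for germline genes, and the quantile-normalized table gave 0.028 for germline genes; both germline values changed sign. The cause was not tested for these changes. Placing dim arrays at their bound gave 1173 higher and 1746 lower genes. The settings for chromosomes were chosen after seeing the data. No paired analysis was possible because each group is 1 array, and leaving out an array or a slide block could not be run on 1 array a group and 1 slide. Signal over background limits the dim genes, whose folds are bounds.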
